A study of Mus musculus with 6 samples.

Results

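The reads on piRNA genes in 6 small RNA libraries from male mouse primordial germ cells were 59263 copies of 27231 distinct sequences. Reads with the size and first base of piRNAs that lay in 1 piRNA gene made up 4655 copies and 1980 distinct sequences. A member was a sequence of 26 to 32 nt that began with U (written T in the files) and whose listed places all lay in 1 piRNA gene, the name the authors' files give to a cluster transcript. The members came from 190 of the 214 piRNA genes with reads. Of these, 104 were named after a gene (pi-Fth1, for example) and 86 after a chromosome band (9-qC-31469).

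The cells were primordial germ cells, the embryonic precursors of sperm and eggs, from male embryos at E13.5. The control group (control 1 to 3) was left untreated and the IR group (IR 1 to 3) received ionizing radiation; strain, dose and time after exposure were not given in the labels. RNA of 18 to 50 nt had been size selected before library construction. Nothing in the labels says that the 3 libraries of a group came from separate embryos or litters, so p-values speak of how far these libraries spread, and that spread may be technical.

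piRNAs are small RNAs bound by PIWI proteins, Argonaute relatives that silence transposons in the germ line. They are cut from long single-stranded cluster transcripts, and PIWI proteins favour a 5′ uridine. In fetal male germ cells a second route, the ping-pong cycle, gives pairs of piRNAs on opposite strands whose 5′ ends overlap by a fixed length, one partner with a first U and the other with an A at the tenth base. Clusters of the pachytene type, many of them without a protein-coding host, are known from meiotic cells of the postnatal testis, where the binding partners favour reads near the upper end of this size range.

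The members whose sequences carry the results below are shown first, 5′ to 3′, with the first U and, where there is one, an A at the tenth base in capitals. The leading sequences came from pi-D730040F13Rik and 5-qG3-23659:
pi-D730040F13Rik, 28 nt, 409 copies: Tcgaggccagcctgggctacacattttt
pi-D730040F13Rik, 27 nt, 389 copies: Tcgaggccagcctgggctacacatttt
pi-D730040F13Rik, 26 nt, 351 copies: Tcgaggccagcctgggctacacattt
5-qG3-23659, 30 nt, 120 copies: Tcggccttttggctaagatcaagtgtagta
pi-D730040F13Rik, 27 nt, 118 copies: Tcgaggacagcctggtctacacatttt
pi-D730040F13Rik, 26 nt, 99 copies: Tcgaggacagcctggtctacacattt
pi-D730040F13Rik, 28 nt, 70 copies: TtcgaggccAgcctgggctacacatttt
pi-D730040F13Rik, 27 nt, 66 copies: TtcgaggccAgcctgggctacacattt
The 7 sequences of pi-D730040F13Rik are listed at 1 stretch of its transcript, and whether all of them arose there was not tested. They differ in where they end, in an extra first t, or in the substitutions C7A and G16T, counted from the 5′ end. The sequence of 5-qG3-23659 comes from the start of U2, the small nuclear RNA of the spliceosome that pairs with the branch point.

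A second set shows what the members looked like elsewhere. These are 2 coding-sequence members of pi-Fth1 and 8 examples of the remaining members of band-named clusters. The 8 were of 29 or 30 nt, a choice of lengths at which control 1, a library that stood apart, had most reads. They had 2 or more copies each, and further members may meet these terms:
pi-Fth1, 28 nt, 6 copies: Tacgtctatctgtctatgtcttgttatt
pi-Fth1, 28 nt, 5 copies: TgtgacttcAttgagacgtattatctga
7-qF3-3125, 30 nt, 3 copies: Tcggccttttggctaagatcaagtgtagtg
6-qF3-1063, 30 nt, 3 copies: Tgaactccccgtgtgagcagtagagcattc
7-qD1-16444, 29 nt, 2 copies: Tcacttgtattttgatttctccatggctg
15-qE1-8387, 29 nt, 2 copies: Tctcatggtcctggcatctccggacatcc
7-qD1-19431, 29 nt, 2 copies: Tctgcatcttttacaatgaacttgacttt
11-qE1-3997, 29 nt, 2 copies: Tgtaaaatggactgaaatgttacctcatc
2-qE1-35981, 30 nt, 2 copies: Tgtgtatgcgttaataaaaagaaggaactc
9-qC-31469, 30 nt, 2 copies: TgttctttcAgaggtcctcagttttaactc
Of the 8 band-named sequences shown, 6 were found in control 1 alone. That of 7-qF3-3125 was in control 1, control 2 and IR 1, and that of 2-qE1-35981 in control 1 and IR 1. The 7-qF3-3125 sequence differs from the U2 sequence of the first list only in its last base. It was counted among the remaining members because variants with a changed base were not matched.

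Reads on piRNA genes were few, with 7788 to 11280 copies a library, of which 5889 to 9017 lay in a single piRNA gene. The depth of the whole small RNA libraries is not given in the sources used here. Member copies were 1127, 708 and 868 in control 1 to 3 and 735, 773 and 444 in IR 1 to 3. Control 1 stood apart from the other 5 libraries in its band-named members, as described below, and values without it are given beside the results that it moves. The labelled cell type could not be checked with markers, because the files hold reads on piRNA genes alone; of 13 germ cell and pluripotency genes only Tfcp2l1, a transcription factor of naive pluripotency, named a cluster with members, and no Sertoli, Leydig, endothelial or blood gene of the lists did. In bulk samples of this kind, fewer cells of a type and less RNA per cell cannot be told apart.

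The members were of 3 kinds. Most of them, 2637 copies or 56.6%, were listed in a 95-nt segment of the pi-D730040F13Rik transcript. From general knowledge, its letters are those of 4.5SH RNA, a short noncoding RNA of rodents related to the B1 repeat; no reference entry for it was used here. A further 196 copies (4.21%) matched an annotated small nuclear or other structured RNA in full. Cytosolic tRNAs were not among the annotated RNAs, and variants with a changed base were not matched. The segment is not counted as structured RNA below. The remaining 1822 copies lay outside both, 867 in gene-named and 955 in band-named clusters. They may still hold fragments of such RNAs.

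These kinds differed in how often a sequence recurred. The segment gave 262 distinct sequences with 10.1 copies each, of which 26 were found in all 6 libraries. The remaining members were 1687 distinct sequences with 1.08 copies each; 1651 of them were in a single library, 1597 were seen once and none was in all 6.

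**Figure D1:**
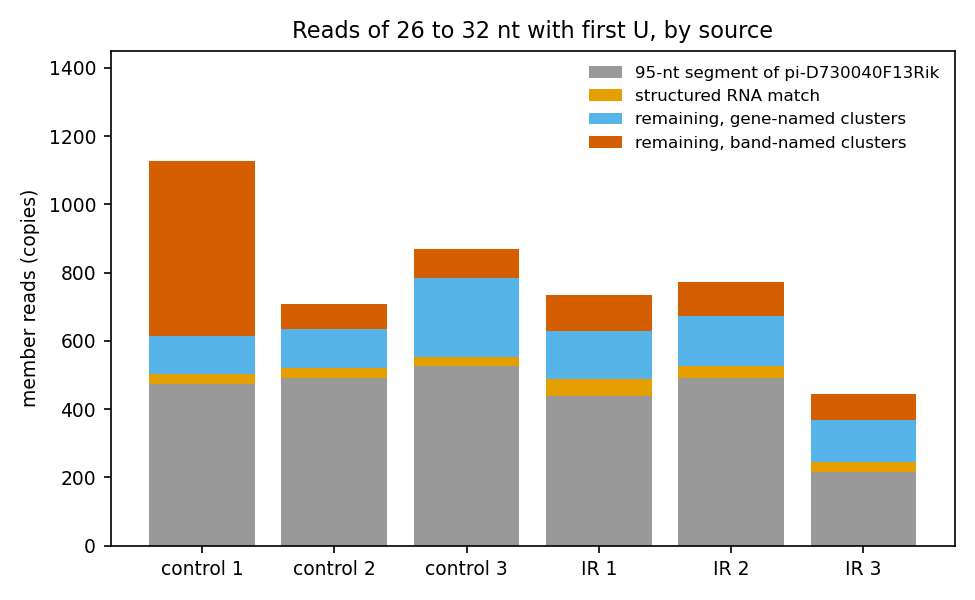
Member copies (vertical axis) in each of the 6 libraries, stacked by source: the 95-nt segment of pi-D730040F13Rik, sequences of structured RNAs, and the remaining members of gene-named and of band-named clusters. The band-named portion was 513 copies in control 1 and 73 to 106 in the other 5 libraries.

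Band-named clusters held a piRNA-like population in control 1 that was not seen at that level in any other library. Their remaining members numbered 513 copies in control 1, 73 in control 2, 85 in control 3, 106 in IR 1, 101 in IR 2 and 77 in IR 3. As a share of all single-gene reads, they were 6.55% in control 1 and 1.02% to 1.31% in the other 5 libraries. The 513 copies were spread over 496 distinct sequences and 74 clusters, with at most 3 copies of 1 sequence; the highest copy number of 1 sequence elsewhere was 4, in IR 1 and IR 2. The source of these reads in control 1 was not tested, and every control mean below that includes band-named members includes them.

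The excess lay in first-U reads of this size. Reads of 26 to 32 nt from the same clusters with another first base were 287 in control 1 and 172 to 333 elsewhere, so control 1 lay inside the range. First U was found on 64.1% of the band-named reads of this size in control 1 (95% Wilson interval 60.7% to 67.4%, counting error only) and on 25.9% and 25.4% in control 2 and 3 and 27.2%, 23.3% and 30.9% in IR 1 to 3. At 29 to 31 nt, the share was 75.9% in control 1, from 360 first-U copies, and 21.5% to 32.7% in the others, from 27 to 39 copies. Below this size the libraries did not separate in this way: at 20 to 25 nt control 1 had 46.0% first U, and the others 36.5% to 48.4%.

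Within 26 to 32 nt, the first-U reads of band-named clusters in control 1 were most frequent at 30 nt, with 115 copies at 29 nt, 158 at 30 nt and 87 at 31 nt. The other 5 libraries had 7 to 14 copies at 30 nt. Among shorter reads the excess of control 1 over the other control libraries was smaller or absent. At 22 nt, the most frequent length in the control libraries, there were 219, 218 and 241 copies in control 1 to 3. At 20 nt there were 127, 67 and 76 copies in control 1 to 3 and 153, 141 and 98 in IR 1 to 3. At 25 nt there were 31, 18 and 23 in control and 31, 21 and 13 in IR. The sense strand of the cluster transcript held 95.5% of the control 1 copies, against 80.8% and 68.2% in control 2 and 3 and 62.3%, 59.4% and 51.9% in IR 1 to 3. An A at the tenth base was present in 25.9% in control 1, within the 24.8% to 32.5% of the others.

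**Figure D2:**
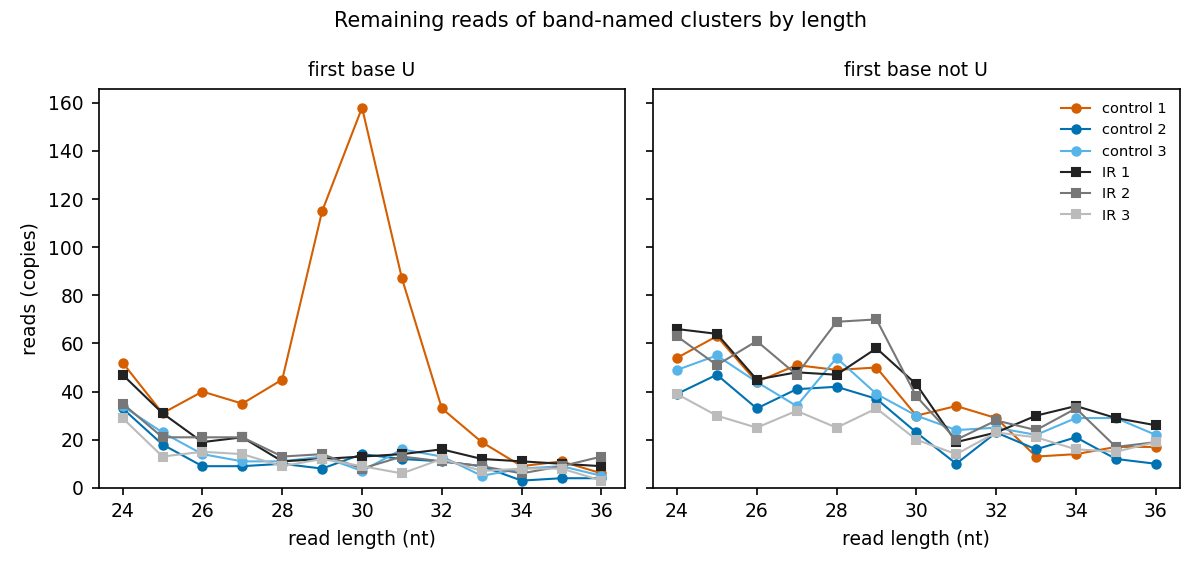
Copies (vertical axis) of single-gene reads of band-named clusters outside structured RNA, by read length in nt, for first U (left) and any other first base (right), 1 line a library. With first U, control 1 rises to 158 copies at 30 nt, where the others have 7 to 14; with another first base it lies among the other lines at most lengths.

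**Figure D3:**
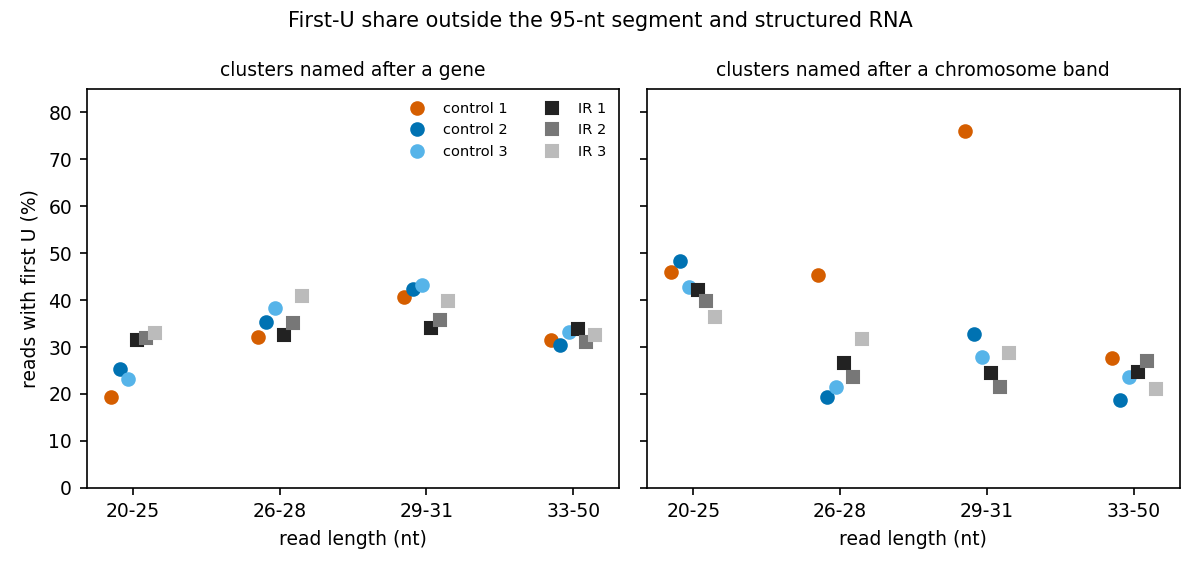
Percentage of reads with first U (vertical axis) in 4 length windows, for gene-named (left) and band-named (right) clusters, 1 point a library, outside the 95-nt segment and structured RNA. In band-named clusters control 1 stands at 45.5% at 26 to 28 nt and 75.9% at 29 to 31 nt, above every other library, and lies among the others at 20 to 25 nt; in gene-named clusters it does not stand apart at 26 nt or longer.

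Single clusters showed the same order. Control 1 had more of these remaining copies than each other library in 54 of the 86 band-named clusters, while no other library led in more than 5, and in 40 clusters it exceeded the other 5 libraries added together. For reads of the same size with another first base, control 1 led in 16 of 85 band-named clusters and IR 1 in 14. The next examples were chosen after their values were seen. Members of 18-qE1-36451 numbered 30, 1 and 1 in control 1 to 3 and 0 in each IR library. Members of 9-qC-31469 numbered 25, 1 and 3 against 0, 2 and 0, and those of 4-qC5-17839 numbered 19, 1 and 0 against 0, 1 and 0. All but 1 of the copies of each of these 3 clusters were sense. The other 2 control libraries lacked the excess.

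Other band-named clusters among the 10 with the most members were more even or followed the same library. Members of 17-qA3.3-27363 numbered 22, 7 and 2 in control 1 to 3 and 2, 2 and 1 in IR 1 to 3, with control 1 far above the rest. Members of 2-qE1-35981 numbered 33, 7 and 8 against 8, 2 and 3, of which 11 copies in all had the sequence of U6, the catalytic small nuclear RNA of the spliceosome. Members of 14-qA3-19970 numbered 16, 3 and 4 against 4, 6 and 3. In contrast, 3-qA2-617 had 4, 2 and 6 copies in the control libraries and 15, 6 and 7 in the IR libraries; its highest library was IR 1, and the groups overlapped.

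**Figure D4:**
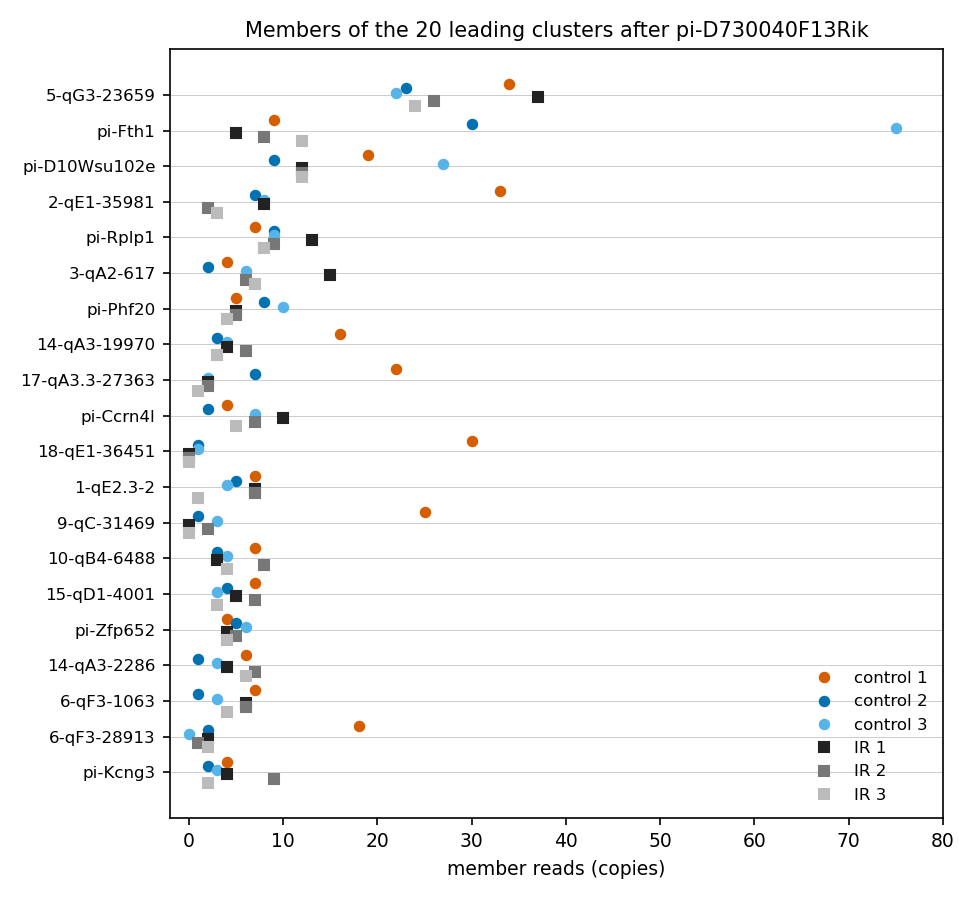
Member copies (horizontal axis) in each library for the 20 piRNA genes with the most members after pi-D730040F13Rik; circles are control and squares IR libraries. Control 1 is the highest point by a wide margin for 18-qE1-36451, 9-qC-31469, 6-qF3-28913, 17-qA3.3-27363 and 2-qE1-35981, and control 3, with 75 copies, for pi-Fth1.

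In gene-named clusters control 1 had the fewest remaining members, with 112 copies. Control 2 had 115 and control 3 had 231 copies, and IR 1 to 3 had 141, 145 and 123. First U made up 33.7% to 39.9% of these reads at 26 to 32 nt, with no library apart. Of the 867 copies, 406 (46.8%) matched an exon of the host gene on the sense strand in full, and 139 (16.03%) did so after 1 to 3 last bases were left off. The 10 leading gene-named clusters held 52.6% of these copies, against 34.9% for the 10 leading band-named clusters.

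pi-Fth1 was the largest of them. Its host Fth1 encodes the heavy chain of ferritin, which oxidizes and stores iron; the gene lies on the plus strand at chr19:9980598-9985098 (mm10). Its members numbered 9, 30 and 75 copies in control 1 to 3 and 5, 8 and 12 in IR 1 to 3. Control 2 and 3 lay above all IR libraries, but control 1, at 1228 CPM (copies scaled to the library's single-gene reads, with TMM adjustment), lay inside the IR range of 552 to 1939 CPM, so the groups overlapped.

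Members of pi-Fth1 fell in IR, from 4943 ± 3787 to 1130 ± 722 CPM (SD, n = 3 each), a log2 fold change of -2.23 (SE 0.52, edgeR quasi-likelihood test, adjusted p = 0.00599). It was the single member row called among the 5 that passed the filter on low counts, in a table of 100 rows (members and other reads of each piRNA gene) of which 10% were called. Over the other fits the adjusted p lay between 1.57e-12 and 0.177; the call was lost with DESeq2 (0.146) and with the member rows alone (0.177). Without control 3 the log2 fold change was -1.51 (edgeR adjusted p = 0.0345).

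The pi-Fth1 members ran along the messenger RNA in 1 direction. All 101 distinct sequences were sense. In the annotated Fth1 transcript of 929 nt (coding sequence at 225 to 773), 63 copies (45.3%) lay in the coding sequence, 23 (16.5%) in the 5′ UTR and 6 in the 3′ UTR; 32 copies matched only after trimming of the last bases and 13 did not match. They began at 46 positions, and the 21 positions with 2 or more distinct sequences held 114 of the 139 copies. The most used start, position 109 of the cluster transcript, had 2, 3 and 9 copies in the control libraries and 0, 1 and 3 in IR, and starts 263 and 568 had 11 and 9 copies, all in control libraries. The 2 sequences printed above begin at positions 263 and 557.

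Other reads of pi-Fth1 were spread differently over the libraries. Members outnumbered reads of 26 to 32 nt with another first base by 9 to 5, 30 to 6 and 75 to 18 copies in control 1 to 3 and by 12 to 4 in IR 3, and were fewer in IR 1 (5 to 10) and IR 2 (8 to 12). pi-Fth1 reads of 20 to 25 nt numbered 4, 7 and 21 in control and 13, 16 and 13 in IR. Reads of 33 to 50 nt numbered 10, 19 and 23 in control and 18, 24 and 15 in IR. These differences between size classes were not tested.

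Other gene-named clusters gave no call. pi-Rplp1, hosted by the gene of an acidic protein of the ribosomal stalk (minus strand, chr9:61913284-61914542), had 7, 9 and 9 member copies in control and 13, 9 and 8 in IR, all sense (log2 fold change 0.13, SE 0.35, edgeR adjusted p = 0.849). Fth1 and Rplp1 both have processed copies elsewhere in the genome, so the assignment of their reads is uncertain. pi-D10Wsu102e (plus strand, chr10:83360221-83488505) had 19, 9 and 27 copies against 12, 12 and 12 (log2 fold change -0.70, SE 0.35, edgeR adjusted p = 0.226); its members were mostly antisense, with 28.6% on the sense strand. pi-Phf20, whose host encodes a chromatin reader of the MOF acetyltransferase complex, had 5, 8 and 10 copies against 5, 5 and 4. pi-Ccrn4l, hosted by the circadian phosphatase gene Noct, had 4, 2 and 7 against 10, 7 and 5, but was not among the 10 clusters with the most members.

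Of 30 listed targets of p53, the transcription factor activated by DNA damage, 2 hosted members, with 18 copies in all. How many genes of this or the other lists name a piRNA gene at all is not given here. The 2 clusters, pi-Foxo3 and pi-Zmat3, had 11 and 7 copies, where the median gene-named cluster had 4.0 remaining copies. pi-Foxo3, named after a stress-responsive forkhead transcription factor, had 0, 0 and 1 copies in control 1 to 3 and 2, 4 and 4 in IR 1 to 3, all sense. Its reads of the same size with another first base had a like order, with 1, 2 and 3 against 5, 5 and 6 copies. pi-Zmat3, named after an RNA-binding p53 target, had 0, 1 and 1 against 3, 1 and 1. Neither row had enough copies to pass the filter, and both clusters were picked with earlier results of these data known. No gene of the piRNA pathway list (28 genes) or the DNA repair list (14 genes) hosted a member, and of the other clusters picked in that way pi-Tfcp2l1 had 3 copies, 9-qF4-150 had 1, 15-qD1-4001 had 29 and 9-qC-10667 had 14, 12 of them in control 1.

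pi-D730040F13Rik supplied 2649 member copies, of which 2637 lay in the 95-nt segment (positions 12109 to 12203 of its transcript). Its host locus, annotated as Tmem245, a membrane protein gene, lies on the minus strand at chr4:56866923-56947437. Member copies were 473, 492 and 530 in control 1 to 3 and 441, 496 and 217 in IR 1 to 3. Scaled to library size, every IR library (35062 to 55704 CPM) lay below every control library (62174 to 78786 CPM), and 13% of the 100 rows showed this order. The log2 fold change of -0.56 (SE 0.18) did not pass (edgeR adjusted p = 0.0519). It passed when control 3 (edgeR adjusted p = 0.0311), IR 2 (0.00914) or structured RNA (0.00251) was left out and at 24 to 32 nt (0.0457), and did not pass without control 1 (0.173) or with DESeq2 (0.169).

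Within the segment, the members began at a few preferred bases. Position 66 of the segment was the 5′ end of 1757 copies (66.6%) and position 65 of 339, the start of the 2 listed sequences that begin with an extra t. At position 66, 3 sequence families were told apart over the first 22 nt. The leading family held 1334 copies (75.9%), the second family with the substitutions C7A and G16T held 364 (20.7%) and the third with C20T held 15, with positions counted from 1 at the 5′ end. The second family had 72, 41 and 80 copies in control 1 to 3 and 65, 58 and 48 in IR 1 to 3.

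At some minor 5′ ends the shares of the groups did not overlap. Position 58 had 14, 14 and 13 copies in control 1 to 3 and 35, 25 and 21 in IR 1 to 3, or 2.47% to 2.96% of segment members in control and 5.08% to 9.72% in IR. Positions 30 and 32 showed the same order, with 1.06% to 1.71% against 3.05% to 4.56% at position 30 and 1.27% to 1.71% against 3.25% to 4.63% at position 32. Position 31 also did, with 0.634% to 1.14% against 1.39% to 1.82%, but from few copies: 3, 5 and 6 in control 1 to 3 and 8, 8 and 3 in IR 1 to 3. At these 4 of 19 positions (21.1%) every IR library was above every control library, and at 0 positions every IR library was below. They were picked after their values were seen, and no test was made. Position 9, with 16, 12 and 28 copies against 6, 4 and 8, overlapped between groups as a share.

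**Figure D5:**
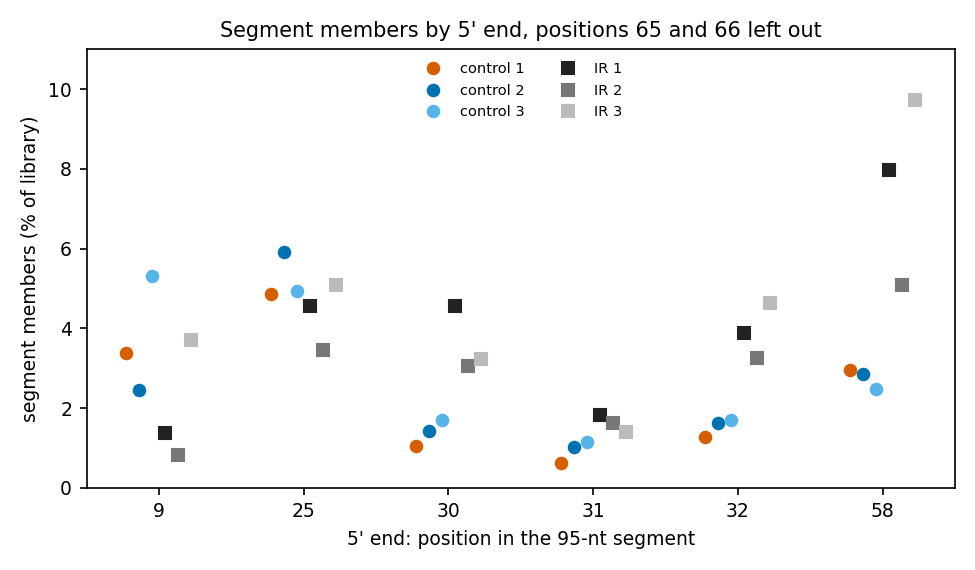
Share of the segment members of each library (vertical axis, %) that began at 6 minor 5′-end positions of the 95-nt segment; circles are control and squares IR libraries. At positions 30, 31, 32 and 58, which are 4 of 19 positions, the IR libraries lie above all control libraries, with 5.08% to 9.72% against 2.47% to 2.96% at position 58.

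No single member sequence was called. Of 124 sequences that passed the filter, 8.06% were called (3.23% lower in IR); 10 of them were members, of which 0 were called by edgeR or DESeq2 and 0 had an unadjusted edgeR p under 0.05. The leading 28-nt sequence had 75, 97 and 74 copies in control and 59, 79 and 25 in IR (log2 fold change -0.50, SE 0.38, edgeR adjusted p = 0.489). The U2 fragment of 5-qG3-23659 had 15, 20 and 15 against 33, 17 and 20 (0.67, SE 0.38, edgeR adjusted p = 0.342). Over the whole of its cluster there were 34, 23 and 22 member copies against 37, 26 and 24 (log2 fold change 0.0024, SE 0.32, edgeR adjusted p = 0.994).

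Most of the members with a structured RNA sequence were that U2 fragment or its longer forms. 5-qG3-23659 held 144 of the 196 copies, 1-qE2.3-2 held 25 (matching the snRNA gene Gm22710), 2-qE1-35981 held 11 (U6) and 10-qB4-6488 held 9. Structured RNA sequences were 2.57%, 4.10% and 3.00% of the members in control 1 to 3 and 6.67%, 4.53% and 6.31% in IR 1 to 3. The IR mean was 2.61 percentage points higher and the groups did not overlap (exact two-sided permutation p = 0.1, the smallest p that 20 regroupings allow; adjusted 0.2 over 6 measures). The groups overlapped when distinct sequences were counted once, with 1 listed place, at 26 to 31 nt and without pi-D730040F13Rik.

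By length, most members were at the lower end of the piRNA range. Those of 26, 27 and 28 nt made up 19.1%, 23.9% and 22.1%, and the segment members were mostly of these lengths; among the remaining members 30 nt was the most frequent length, at 17.3%, but without control 1 it was the least frequent, at 11.6%. Each of the 7 member lengths was lower in IR on average, with a median log2 fold change of -0.61 against 0.0046 over all 102 rows of length and first base. None was called by edgeR or DESeq2, where 2.94% of the rows were called by edgeR (0.98% lower in IR), and 5 had an unadjusted edgeR p under 0.05, where 16.7% of the rows had one. Without control 1 the median of the member lengths was -0.31 and 2 had an unadjusted edgeR p under 0.05.

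The lengths differed in what they rested on. At 28 nt, members were 27064 ± 3178 CPM in control and 17574 ± 2337 in IR (SD, n = 3; log2 fold change -0.61, SE 0.16, edgeR adjusted p = 0.0575). At 26 nt they were 22539 ± 508 and 15971 ± 1028 CPM (SD, n = 3; -0.49, SE 0.14, edgeR adjusted p = 0.0808). At 30 nt, copies were 204, 58 and 56 in control 1 to 3 and 88, 61 and 57 in IR 1 to 3, and the log2 fold change of -0.68 (edgeR adjusted p = 0.481) became 0.17 without control 1. Without control 1 it moved from -0.72 to -0.25 at 29 nt and from -0.84 to -0.38 at 31 nt.

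First U was found on 44.9%, 37.9% and 34.2% of single-gene reads of 26 to 32 nt in control 1 to 3 and on 31.1%, 30.96% and 29.1% in IR 1 to 3. The mean was 39.0% ± 5.43 in control and 30.4% ± 1.10 in IR (SD, n = 3), a difference of -8.62 percentage points, and the groups did not overlap, at the smallest p the design allows (exact two-sided permutation p = 0.1, adjusted 0.2). Without control 1 the difference was -5.67 points. Outside the segment and structured RNA, the shares were 55.2%, 32.2% and 34.3% against 30.8%, 29.3% and 35.9%, which overlap (exact permutation p = 0.4).

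The share of members on the sense strand was 95.7%, 95.6% and 93.0% in control 1 to 3 and 91.4%, 90.7% and 89.0% in IR 1 to 3. The IR mean differed by -4.42 points, without overlap (exact permutation p = 0.1, adjusted 0.2). With 1 listed place the groups overlapped (exact permutation p = 0.2). Among the remaining members, the sense shares were 92.5%, 84.6% and 81.0% against 74.4%, 71.5% and 75.5%, so that control 2 and 3 also lay above the IR libraries. This order was present in band-named clusters (lowest control library 68.2%, highest IR library 62.3%) and not in gene-named clusters, where control 1 had the lowest sense share (78.6%) and IR 3 the highest (90.2%). The difference between the kinds of cluster was not tested.

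The remaining measures overlapped between groups. Members with an A at the tenth base differed by -1.16 points (exact permutation p = 0.5), mean length by -0.036 nt (exact permutation p = 0.8) and copies per distinct sequence by -0.097 (exact permutation p = 0.9).

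Without the filter on low counts, the fit by piRNA gene called 9 of 190 member rows, all lower in IR, where 4.21% of 404 rows were called. They were pi-Fth1 and 8 band-named clusters led by control 1: 2-qE1-35981, 4-qC5-17839, 7-qD1-19431, 7-qD2-24830, 9-qC-31469, 12-qE-23911, 17-qA3.3-27363 and 18-qE1-36451. With control 1 also left out, pi-Fth1 was the 1 member row called (edgeR adjusted p = 1.57e-12), of 169 tested, where 2.36% of all rows were called. This last fit was added after the data had been seen.

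Set against reads of the same size with another first base, within each library, members were more often sense. The sense share was 92.6% ± 2.73 for members and 74.6% ± 4.58 for the others (SD, n = 6 libraries), higher in 6 of 6 libraries (exact sign-flip permutation p = 0.03125, the smallest possible; adjusted 0.0469 over 6 measures). Outside the segment and structured RNA the difference was 23.8 points, again in 6 of 6 libraries, but the adjusted p was 0.0781 (exact permutation), and for sequences with 1 listed place it was 37.0 points. Structured RNA sequences were less frequent among members, at 4.53% against 13.2%, in 6 of 6 libraries (exact permutation p = 0.03125, adjusted 0.0469). The 95-nt segment, 56.6% of all member copies, is not counted in this share. Reads with another first base also came from pi-D730040F13Rik. These numbered 701, 543 and 838 copies in control 1 to 3 and 883, 912 and 636 in IR 1 to 3. How many of them lay in the segment is not given here, so the contrast covers the annotated RNAs alone.

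Members also recurred less between libraries. Of the member sequences of a library, 24.4% ± 7.37 were also found in another library, against 33.6% ± 2.35 for other first bases (SD, n = 6; exact permutation p = 0.03125, adjusted 0.0469, in 6 of 6). Outside the segment and structured RNA the difference was -3.38 points, in 5 of 6 libraries (exact permutation p = 0.0625). Mean length differed by -0.794 nt, members being shorter, in 6 of 6 libraries (exact permutation p = 0.03125, adjusted 0.0469), but outside the segment and structured RNA they were longer by 0.262 nt (exact permutation p = 0.0625). An A at the tenth base was 1.09 points less frequent among members (exact permutation p = 0.219), and copies per distinct sequence differed by 0.028 (exact permutation p = 0.719).

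First U was set against shorter and longer reads. Its share was 34.7% ± 5.88 at 26 to 32 nt and 18.0% ± 0.831 at 33 to 50 nt (SD, n = 6), higher in 6 of 6 libraries (exact permutation p = 0.03125, adjusted 0.0625 over both comparisons). The difference of 16.7 points became 7.70 outside the segment and structured RNA, in 5 of 6 libraries (exact permutation p = 0.0625), and 0.864 with 1 listed place, in 3 of 6 (exact permutation p = 0.75). At 20 to 25 nt it was 43.2% ± 3.09, which was higher than at 26 to 32 nt in 5 of 6 libraries; control 1 was the exception, with 44.0% against 44.9% (exact permutation p = 0.0625). That difference of -8.52 points became -0.22 outside the segment and structured RNA, with 3 of 6 libraries each way (exact permutation p = 1.0). With 1 listed place it was -17.9 (exact permutation p = 0.03125). Without control 1, the differences over all single-gene reads were 14.5 points from 33 to 50 nt and -10.4 from 20 to 25 nt. Outside the segment and structured RNA they are not given without control 1. There, band-named clusters of control 1 had 64.1% first U at 26 to 32 nt against 46.0% at 20 to 25 nt. Every other library had the reverse order in these clusters, and gene-named clusters had more at 26 to 32 nt in every library.

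No ping-pong pair was found outside the segment and structured RNA. Among the remaining members, no 2 on opposite strands overlapped by 10 nt at their 5′ ends in any library. With the reads of other first bases added there was still none, and pairs with any overlap of 1 to 20 nt summed to at most 7.92 in a library. Pairs were of distinct sequences, whatever their copies, and were weighted by the inverse of the number of places of both sequences. A member that began at the nucleotide after another's end, the mark of phased cutting, was found 0 to 1 times in a library. At 179 to 605 distinct remaining members in a library, few pairs could be seen at all.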

How the data were processed

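Each library's deposited file lists reads on piRNA gene transcripts; per the file contents, the authors' values used here are whole-number copy counts of each sequence and the number of places it has, and each sequence was counted once per library. The genome build was mm10, per the submitters' processing notes; the aligner and the cluster set were not given in the sources used here. Host genes and transcripts were taken from GENCODE vM21 (same assembly), matching 102 of 104 gene names. Reads in more than 1 piRNA gene were left out. The segment is the run of positions around the leading member with at least 10 copies each. These copies were of all reads on that strand of the transcript, whatever their length, first base or number of piRNA genes.

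Counts were tested with edgeR 4.0.16 (TMM, except by length; low counts filtered; Benjamini-Hochberg at 0.05) on whole tables, with DESeq2 1.42.0 as an alternative; these fits were tested on simulated data (95.5% of 4-fold changes recovered and 55.5% of 2-fold among 100 piRNA gene rows; 82.5% and 20% among 124 sequences; by length, 82.5% of 2-fold and 35% of 1.5-fold among 102 rows). Shares were tested by exact permutation over libraries (20 regroupings, or 64 sign flips). Named clusters were those called, the 10 with most members, the 8 leading sequences and listed hosts. The members and lists were chosen with earlier results of these data known. Python 3.11.15 and R 4.3.3 were used. Band-named clusters in the text have no coordinates because their genome positions were not used here.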

Additional observations from a re-analysis of the deposited data

How the results depend on the processing

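Small counts were the main limit: 5 of 190 member rows by piRNA gene passed the filter on low counts, and 3 libraries a group allow no permutation p under 0.1 (5 libraries, no sign-flip p under 0.0625). The count of piRNA genes called among members (1) was 0 with DESeq2 and with member rows alone, 9 without the filter (4.21% of all rows called), 2 without structured RNA (15.2%) and 4 at 24 to 32 nt (13.7%). Leaving out 1 library gave 1 to 2. Same-numbered libraries did not all deviate together (correlations of -0.017 to 0.19 by piRNA gene), and a replicate block gave 2 calls by piRNA gene (15% of all rows; pi-D730040F13Rik edgeR adjusted p = 5.51e-05) and 3 by length (6.86%). By length, the count of 0 became 5 without the filter (6.79% of all rows) and 0 to 1 when 1 library was left out.

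Signs of small differences turned: 5-qG3-23659 was -0.037 with DESeq2, -0.042 without the filter and -0.017 at 24 to 32 nt (-0.26 to 0.21 without 1 library), pi-Rplp1 -0.071 to 0.24 (-0.088 with neither the filter nor control 1, an added setting) and 30 nt -1.02 to 0.17. The 27-nt second-family sequence was -0.040 without the filter, -0.17 by library total and -0.076 to 0.21 without 1 library; the 26-nt one was 0.069 with the block and -0.32 to 0.24. The cause was not tested.

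IR against control, the sense difference was -8.07 points by distinct sequences, -9.71 with 1 listed place (groups overlapping), -6.63 without the 10 leading sequences, -9.91 without the leading cluster and -12.2 without segment and structured RNA (-5.32 to -3.73 without 1 library). Mean length differed by -0.25 at 24 to 32 nt and -0.26 without segment and structured RNA (-0.11 to 0.12). The structured share differed by 0.72 by distinct sequences, 1.29 without the 10 leading sequences and 5.36 without the leading cluster. Copies per sequence differed by 0.0035 and 0.042 in these last 2 settings (-0.37 to 0.15).

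Members against other first bases, the sense difference was 12.5 by distinct sequences, 9.93 without structured RNA and 15.995 to 20.2 without 1 library; an A at the tenth base 1.94, 0.040 (1 place), 0.071 (24 to 32 nt) and 0.87 (26 to 31 nt). Length was -0.042 by distinct sequences, -1.002 without structured RNA, 0.51 with 1 place and 0.26 without both (-0.83 to -0.76). The structured share was -2.41 by distinct sequences (-9.99 to -7.41), copies per sequence -0.34 with 1 place and -0.097 without both (-0.057 to 0.11), and recurrence -9.20, -8.11 and -3.38 by distinct sequences, without structured RNA and without both (-10.4 to -6.51). First U against 20 to 25 nt became 4.12 by distinct sequences and 3.12 without structured RNA (-10.4 to -7.27), and against 33 to 50 nt it was 7.67 by distinct sequences and 14.5 to 17.7 without 1 library. The 4.12 had 3 libraries each way, with control 1 at 50.2% at 26 to 32 nt against 29.9% at 20 to 25 nt.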

Other observations

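First-U reads of 26 to 32 nt listed in more than 1 piRNA gene were not members. They numbered 160, 100 and 145 copies in control 1 to 3 and 155, 193 and 110 in IR 1 to 3, 863 copies in 682 distinct sequences, and control 1 lay inside the range of the other libraries.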
